A study of Mus musculus with 8 samples.

Results

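The 8 genes Bst1, Zfhx4, Sod3, Serpinb11, Cbx7, Nudt22, Abcg2 and Gm26880, out of 31228 in the deposited table, were selected on their FPKM in organoids: the levels in bile duct organoids and in pancreatic duct organoids did not overlap. Organoids are hollow structures that epithelial cells form when grown in Matrigel, and the question here was whether the epithelia from which they came differ in the same way. RNA was measured in 8 C57BL/6 mouse libraries: 1 of extrahepatic bile duct epithelium (BD), 1 of pancreatic duct epithelium (PD), 3 of bile duct organoids (BDO) and 3 of pancreatic duct organoids (PDO). Ducts were dissected and digested with collagenase, epithelia went directly into Trizol, and organoids were taken after 3 to 4 passages. All organoids had the same medium with B27, N-acetylcysteine, EGF, R-spondin-1, Noggin, FGF10 and nicotinamide, and at first also Wnt3A conditioned medium and the ROCK inhibitor Y27632, which were withdrawn once a lumen had formed. Age and sex of the mice, and whether the 3 cultures of a group came from separate animals, are not given in the sources used here, so a spread between cultures may be technical.

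Extrahepatic bile ducts and pancreatic ducts are lined by related simple epithelia that arise from neighbouring endoderm of the embryo and drain into the same part of the gut. The 8 genes have unrelated roles. Bst1, Abcg2 and Sod3 encode proteins of the cell surface or the space outside the cell, Serpinb11 and Nudt22 encode proteins inside the cell, Zfhx4 and Cbx7 encode nuclear proteins, and Gm26880 is annotated as a long non-coding RNA.

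The organoid values chose these genes and are therefore given as a description, with no test. All 8 passed the filter of at least 1 FPKM (reads of a gene relative to its exon length and to the depth of the library) in at least 3 organoids, after scaling between libraries, and all 8 were separated between the groups. Zfhx4 and Abcg2 passed it through BDO alone and Serpinb11 through PDO alone. With FPKM as deposited 7 of the 8 passed, because Zfhx4 was at 0.992 FPKM in BDO 1. Among the 12094 genes that passed, 809 (6.69%) were separated in this way, 357 (2.95%) higher in BDO and 452 (3.74%) higher in PDO, and 42 (0.347%) were also at least 2-fold apart. Of the 8 genes, 5 were higher in BDO (Bst1, Zfhx4, Abcg2, Nudt22, Gm26880) and 3 higher in PDO (Sod3, Serpinb11, Cbx7). limma called 0 of 12094 genes (0%) at a Benjamini-Hochberg adjusted p under 0.05 and 311 (2.57%) at an unadjusted p under 0.05, of which 129 (1.07%) were higher in BDO and 182 (1.5%) in PDO. The unadjusted count depended on single libraries, being 1024 of 11907 without BDO 1, 156 of 11870 without BDO 2 and 188 of 11858 without BDO 3. In addition, limma-voom on read numbers called 1 gene, which was not among the 8. The gap between the groups, taken as the lowest value of the higher group minus the highest value of the lower group in log2(FPKM + 1), was widest of all tested genes for Gm26880 at 2.88. Nudt22 had the narrowest gap of the 8 at 0.52, which ranked 23rd, and the next gene outside, H2-K2, had 0.48. The list does not hold every gene of these ranks. Foxj1, a master factor of motile cilia, was 2nd with a gap of 1.48 and is not a member.

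The libraries held between 12876468 and 20828213 reads or read pairs, as worked out from the FPKM steps, and a read number below is a gene's FPKM divided by that step. The epithelial libraries were mixtures. Summed over 8 acinar markers, digestive enzymes included, they had 16526 FPKM in BD and 34795 FPKM in PD, against 2.30 to 9.13 in BDO and 4.07 to 5.61 in PDO. The 10 duct epithelium markers, all at or above 1 FPKM in both epithelia, summed to 2590 FPKM in BD, 638 in PD, 6899 to 10590 in BDO and 5624 to 11470 in PDO. The 8 fibroblast markers summed to 1721 and 1775 FPKM in BD and PD and to at most 8.71 in an organoid, with Lum at 0 in all 6. The 8 endothelial markers stayed at or below 0.295 FPKM in sum in every organoid, and the 8 leukocyte markers at or below 15.5. Markers of cell division overlapped between the organoid groups, with sums of 240 to 454 FPKM in BDO and 177 to 365 in PDO.

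**Figure D1:**
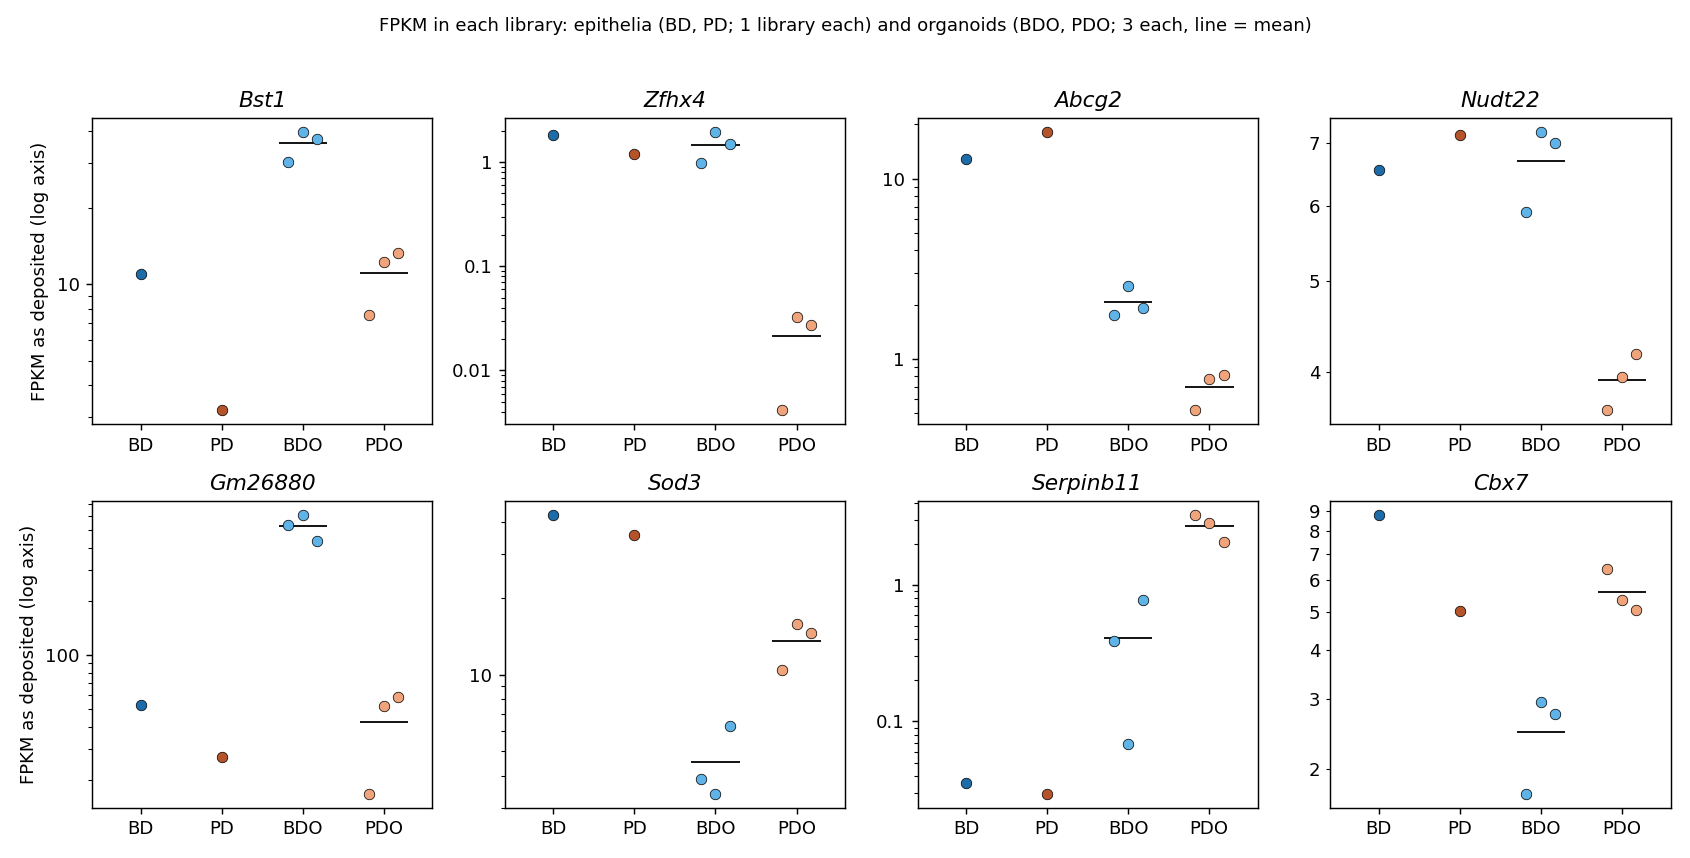
Deposited FPKM of the 8 genes on log axes, 1 point per library, for epithelia (BD, PD) and organoids (BDO, PDO, with the mean as a line). The BDO and PDO points do not overlap in any panel, while Abcg2 and Sod3 are highest in the epithelia and Serpinb11 lowest there.

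Bst1 (ENSMUSG00000029082, chromosome 5, 43818885 to 43843986, plus strand) encodes CD157, a GPI-anchored surface enzyme that breaks down NAD and its precursors. Its deposited values were 30.3, 39.7 and 37.3 FPKM in BDO 1, 2 and 3, and 7.57, 12.3 and 13.3 FPKM in PDO 1, 2 and 3. The lowest BDO had 2.50 times the scaled level of the highest PDO. On the log2(scaled FPKM + 1) scale the groups differed by 1.63 (SE 0.20, n = 3 each). The epithelia differed in the same direction and by nearly as much, with 11.0 FPKM (468 reads) in BD and 3.18 FPKM (163 reads) in PD. Their ratio was 3.44, with an exact 95% interval of 2.87 to 4.14 that covers counting error only. Bst1 was the only 1 of the 8 genes whose epithelial difference reached 2-fold on the log2 scale, at 1.53. Of the 15331 genes that reached 1 FPKM in BD or PD, 1381 (9.01%) were at least 2-fold higher in BD and 665 (4.34%) in PD. Bst1 was also higher in organoids than in the epithelium of the same organ, by 1.47 ± 0.14 for BDO and 1.38 ± 0.37 for PDO (log2, SD, n = 3 cultures each). In this direction 14.4% of 14959 bile duct genes and 17.6% of 14681 pancreatic duct genes with at least 1 scaled FPKM in the epithelium or all 3 organoids were at least 2-fold apart with all 3 organoids on the same side of the epithelium.

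Cd38, which encodes the related ADP-ribosyl cyclase, starts 24.6 kb beyond the end of Bst1. It had 13.2 FPKM in BD and 13.6 in PD but only 0.193 to 1.11 FPKM in BDO and 0.400 to 0.687 in PDO, so its groups overlapped and it did not pass the filter. Among 22 other genes for NAD use and synthesis 12 were tested, and 0 passed limma's adjusted threshold. Nadk, the cytosolic NAD kinase and the most abundant of them, was separated between the groups at 80.1 to 85.7 FPKM in BDO and 61.5 to 71.5 in PDO. Its log2 difference was 0.29 (SE 0.10, limma unadjusted p = 0.0265 and adjusted p = 1.00). Nampt, the rate-limiting enzyme of NAD salvage from nicotinamide, had 14.6, 15.8 and 16.7 FPKM in BDO and 11.5, 10.2 and 15.7 in PDO, and was separated after scaling but not as deposited. Its log2 difference was 0.32 (SE 0.15, limma unadjusted p = 0.0700). Sirt2, an NAD-dependent deacetylase, was separated with PDO higher, at 7.77 to 9.60 FPKM in BDO and 10.3 to 10.6 in PDO (log2 difference -0.24, SE 0.10, limma unadjusted p = 0.0562). Fbxl5 overlaps the start of Bst1 on the other strand, sharing 98 exon bases, and had 12.2 to 14.2 FPKM in BDO and 9.91 to 13.8 in PDO, which overlap.

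Abcg2 (ENSMUSG00000029802, chromosome 6, 58584523 to 58695676, plus strand) encodes BCRP, an ATP-driven exporter of drugs, porphyrins and urate in apical membranes. It has several alternative first exons. RefSeq (build GRCm38.p6) lists windows before 3 of its starts, printed here because the gene-level FPKM sums transcripts from all of them and cannot say which was used. They lie at chr6:58584283-58584522, chr6:58596422-58596670 and chr6:58640296-58640545 on the plus strand, cut where an annotated exon begins, with the dinucleotide CG in capitals.
Abcg2 start 1: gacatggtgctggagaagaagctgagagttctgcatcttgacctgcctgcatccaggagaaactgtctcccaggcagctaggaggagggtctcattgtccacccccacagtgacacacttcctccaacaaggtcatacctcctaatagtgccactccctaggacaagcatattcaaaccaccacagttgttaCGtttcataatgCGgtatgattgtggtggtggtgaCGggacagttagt
Abcg2 start 2: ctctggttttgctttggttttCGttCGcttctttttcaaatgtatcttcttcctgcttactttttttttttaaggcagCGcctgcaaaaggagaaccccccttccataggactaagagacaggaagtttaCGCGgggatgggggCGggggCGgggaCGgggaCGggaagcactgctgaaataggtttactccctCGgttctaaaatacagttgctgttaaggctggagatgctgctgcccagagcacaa
Abcg2 start 3: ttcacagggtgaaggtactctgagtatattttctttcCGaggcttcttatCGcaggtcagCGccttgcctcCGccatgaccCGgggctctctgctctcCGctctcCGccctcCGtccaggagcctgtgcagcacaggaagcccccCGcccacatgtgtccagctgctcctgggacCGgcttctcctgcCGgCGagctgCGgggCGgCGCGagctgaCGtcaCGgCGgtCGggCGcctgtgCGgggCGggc
They hold 3, 10 and 23 CG. Of 32851 RefSeq windows cut to the same length, 69.7%, 37.7% and 13.3% hold at least as many, and 91.6%, 92.1% and 92.1% hold any CG, which reads the same on both strands.

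Abcg2 had 1.75, 2.53 and 1.93 FPKM in BDO 1, 2 and 3 and 0.518, 0.774 and 0.813 FPKM in PDO 1, 2 and 3. All 3 BDO were above all 3 PDO, by 0.84 (SE 0.16) on the log2(scaled FPKM + 1) scale. The pseudocount compresses this value, which was 1.43 with a pseudocount of 0.1, and the scaled means differed 2.92-fold. The epithelia differed the other way. BD had 12.8 FPKM (1349 reads) and PD had 18.2 FPKM (2289 reads), a ratio of PD to BD of 1.42 (95% counting interval 1.32 to 1.52). Every organoid was below both epithelia. Relative to its own epithelium, BDO lay at -2.31 ± 0.16 and PDO at -3.62 ± 0.13 (log2, SD, n = 3 cultures each). In this direction 25.3% of bile duct and 24.1% of pancreatic duct genes were at least 2-fold apart. In scaled FPKM the mean of BDO was 6.93-fold and that of PDO 28.7-fold below its epithelium. The PDO libraries rest on 65 to 138 reads for this gene and the BDO libraries on 254 to 412.

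Of 16 other ABC efflux transporter genes, 6 were tested, 0 passed limma's adjusted threshold and 1, Abcg1, had an unadjusted p under 0.05. Abcg1, a cholesterol exporter of the same subfamily, had 3.53, 0.652 and 0.936 FPKM in BDO and 3.88, 6.96 and 3.74 in PDO, with a log2 difference of -1.22 (SE 0.45, limma unadjusted p = 0.0331, adjusted p = 1.00), opposite in sign to Abcg2. Its groups overlapped after scaling. Abcc3, a basolateral exporter of bile acid and glucuronide conjugates and the most abundant of the list, had 56.1 to 112 FPKM in BDO and 60.9 to 89.4 in PDO, which overlap. It had 15.1 FPKM in BD and 2.70 in PD.

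Sod3 (ENSMUSG00000072941, chromosome 5, 52363791 to 52371418, plus strand) encodes the secreted copper and zinc superoxide dismutase that binds to matrix heparan sulfate. It had 3.87, 3.40 and 6.30 FPKM in BDO 1, 2 and 3 and 10.4, 15.9 and 14.6 FPKM in PDO 1, 2 and 3. All 3 PDO were above all 3 BDO, and the log2 difference was -1.43 (SE 0.23). The epithelia held much more, 42.5 FPKM in BD and 35.5 in PD, from 2046 and 2053 reads. Here BD was the higher, by a ratio of 1.19 (95% counting interval 1.12 to 1.27), against the direction in organoids. Relative to the epithelium of the same organ, BDO lay at -3.16 ± 0.36 and PDO at -1.48 ± 0.29 (log2, SD, n = 3 cultures each). Sod3 is made by stromal and smooth muscle cells in many organs. The smooth muscle markers summed to 2535 FPKM in BD and 4801 in PD and to at most 6.24 in an organoid, and the part of these cells in the epithelial Sod3 value was not tested. In bulk RNA, fewer cells of a type and less RNA per cell cannot be told apart.

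Values of other genes of the same chemistry follow. Sod3 was chosen for its organoid difference, so a smaller one in these genes shows nothing. Sod1, the cytosolic enzyme, had 265, 358 and 405 FPKM in BDO and 306, 275 and 482 in PDO, with a log2 difference of -0.04 (SE 0.23, limma unadjusted p = 0.870). Of 17 other genes of peroxide and superoxide removal and copper delivery, all tested, 0 passed the adjusted threshold and 1 had an unadjusted p under 0.05. This was Prdx4, the peroxiredoxin of the endoplasmic reticulum, with 17.7 to 25.3 FPKM in BDO and 12.7 to 16.7 in PDO (log2 difference 0.60, SE 0.14, limma unadjusted p = 0.00575, adjusted p = 1.00). Atp7b, the copper exporter into bile, had the widest difference of the list at 0.66 (SE 0.55), but its values of 2.70, 15.9 and 8.32 FPKM in BDO overlapped the 3.06 to 7.19 in PDO.

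Serpinb11 (ENSMUSG00000026327, chromosome 1, 107361198 to 107380475, plus strand) belongs to the clade B serpins, intracellular relatives of secreted protease inhibitors. It had 3.24, 2.83 and 2.04 FPKM in PDO 1, 2 and 3, from 93 to 109 reads, and 0.385, 0.0687 and 0.771 FPKM in BDO 1, 2 and 3, from 3 to 31 reads. All 3 PDO were above all 3 BDO, with a difference of -1.42 (SE 0.25) on the log2(scaled FPKM + 1) scale. That scale understates changes at such low levels, and the difference was -2.74 with a pseudocount of 0.1. Each epithelium had 1 read, 0.0355 FPKM in BD and 0.0296 in PD, and 1 read allows an expected number of up to 5.57 (exact Poisson 95% interval). No difference between the epithelia could be seen at this depth, and no fold is given. All 6 organoids were above both epithelia, narrowly so for BDO 2 with 3 reads.

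The nearest genes with at least 1 FPKM on either side are clade B serpins too. Serpinb5, the epithelial protein maspin, had 36.9 to 58.2 FPKM in BDO and 30.6 to 67.1 in PDO, and Serpinb2, known as plasminogen activator inhibitor 2, had 0.764 to 5.24 and 0.164 to 6.63. Both overlapped between the groups. Of 13 other clade B serpins in the table, 8 were tested and 0 passed limma's adjusted or unadjusted threshold. Serpinb9b was separated in the opposite direction to Serpinb11, at 1.89 to 3.78 FPKM in BDO and 0.158 to 1.75 in PDO (log2 difference 0.88, SE 0.37, limma unadjusted p = 0.0531).

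Nudt22 (ENSMUSG00000037349, chromosome 19, 6993018 to 6996117, minus strand) encodes a nudix-fold hydrolase that splits UDP-glucose and UDP-galactose. It had 5.92, 7.20 and 7.01 FPKM in BDO 1, 2 and 3 and 3.64, 3.95 and 4.18 FPKM in PDO 1, 2 and 3. The replicates lay close together, and the log2 difference was 0.63 (SE 0.10), a 1.69-fold difference of scaled means. The epithelia had 6.56 FPKM in BD and 7.15 in PD, from 101 and 132 reads, so that the interval of their ratio of 0.917, from 0.701 to 1.20, includes 1. BDO stood near their epithelium, with a log2 difference of -0.11 ± 0.07 that became 0.023 with FPKM as deposited, and PDO stood lower than theirs, at -0.85 ± 0.05 (log2, SD, n = 3 cultures each). Trpt1, a tRNA phosphotransferase gene, starts 14 bases from Nudt22 on the opposite strand. Its 1.77 to 3.09 FPKM in BDO and 2.05 to 3.24 in PDO overlapped, as did the values of Dnajc4 on the other side, 9.46 to 14.1 and 11.1 to 12.0. Of 21 other nudix genes 17 were tested, 0 passed the adjusted threshold and 1, Nudt6, had an unadjusted p under 0.05, with a log2 difference of -0.35 (SE 0.14, limma unadjusted p = 0.0487). After scaling, Nudt2 and Nudt7 were separated with BDO higher and Nudt6 with PDO higher. Nudt4, the most abundant nudix gene, overlapped between the groups at 53.2 to 70.8 FPKM in BDO and 42.8 to 75.6 in PDO.

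Zfhx4 (ENSMUSG00000025255, chromosome 3, 5218526 to 5415857, plus strand) encodes a very large transcription factor with zinc fingers and homeodomains. It had 0.992, 1.95 and 1.48 FPKM in BDO 1, 2 and 3 and 0.00412, 0.0325 and 0.0275 FPKM in PDO 1, 2 and 3. The long transcript makes the low values countable: BDO had 278, 614 and 429 reads and PDO had 1, 9 and 9. The lowest BDO was 31.4 times the highest PDO in scaled FPKM, while the difference of 1.25 (SE 0.19) on the log2(scaled FPKM + 1) scale is compressed by the pseudocount and was 3.65 with one of 0.1. Both epithelia had levels like those of BDO, 1.81 FPKM in BD (367 reads) and 1.21 in PD (294 reads). BD was the higher, by a ratio of 1.50 (95% counting interval 1.28 to 1.75), in the direction of the organoids but far smaller. PDO was thus the group that stood apart. Relative to their epithelium, BDO lay at -0.30 ± 0.25 and PDO at -1.18 ± 0.02 (log2, SD, n = 3 cultures each). The pseudocount limits the value for PDO and its SD, and with one of 0.1 it was -3.55.

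The related factors overlapped between the groups where named. Zfhx3, the closest paralogue and the widest difference of its list, had 3.13, 7.85 and 6.10 FPKM in BDO and 3.51, 3.07 and 7.34 in PDO, and Zhx1, the most abundant of the list, 3.81 to 7.27 and 3.78 to 8.75. Of 9 other zinc finger homeobox genes 6 were tested, and 0 had an adjusted or unadjusted limma p under 0.05. Pex2, the nearest expressed gene downstream at 144 kb, overlapped between the groups at 22.5 to 24.8 FPKM in BDO and 19.8 to 23.2 in PDO.

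Cbx7 (ENSMUSG00000053411, chromosome 15, 79915807 to 79971119, minus strand) encodes a chromodomain subunit by which Polycomb repressive complex 1 recognises methylated histone H3. The complex keeps developmental genes silent, and the INK4 and ARF locus Cdkn2a is a classical target of Cbx7. The bases before its RefSeq start in build GRCm38.p6, chr15:79932769-79932896 on the minus strand and cut where an exon begins, lie inside the span of the gene in the deposited table, which starts further upstream. They are shown because Cbx7 differed between the groups in the direction opposite to Abcg2. CG is again in capitals.
Cbx7 start: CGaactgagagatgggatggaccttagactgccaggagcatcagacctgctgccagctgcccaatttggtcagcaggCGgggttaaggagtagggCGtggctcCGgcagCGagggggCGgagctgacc
This stretch holds 6 CG in 128 bases, and 27.4% of all windows cut to this length hold at least as many, while 80.8% hold any.

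Cbx7 had 1.73, 2.96 and 2.75 FPKM in BDO 1, 2 and 3 and 6.41, 5.36 and 5.06 FPKM in PDO 1, 2 and 3. All 3 PDO were above all 3 BDO, with a log2 difference of -0.95 (SE 0.17). The epithelia differed the other way, with 8.78 FPKM (733 reads) in BD and 5.02 (503 reads) in PD, a ratio of 1.75 (95% counting interval 1.56 to 1.96). PDO were at the level of their epithelium, at 0.012 ± 0.18 on the log2 scale, and at -0.086 without PDO 1. BDO were lower than theirs, at -1.64 ± 0.24 (log2, SD, n = 3 cultures each). Apobec3 runs toward Cbx7 on the other strand and shares 100 exon bases with it. It had 3.43 to 4.90 FPKM in BDO and 15.6, 17.7 and 4.64 in PDO, with a log2 difference of -1.27 (SE 0.48, limma unadjusted p = 0.0385). Without strand, reads of the shared bases cannot be told apart. In PDO 3 Apobec3 lay within the range of BDO while Cbx7 did not.

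Of 19 other genes of Polycomb repressive complex 1, all tested, 0 had an adjusted or unadjusted limma p under 0.05, and their median log2 difference was -0.08, against -0.0046 over all tested genes. Cbx6, which lies 81.1 kb from Cbx7, had the widest difference of the list at -0.23 (SE 0.14), with 19.5 to 22.0 FPKM in BDO and 22.5 to 28.1 in PDO, which overlapped after scaling. Bmi1, a core subunit, was separated after scaling, with a log2 difference of -0.16 (SE 0.09). The 11 genes of Polycomb repressive complex 2, all tested, likewise gave 0 at either limma threshold. Cdkn2a itself was separated with PDO higher after scaling but overlapped as deposited, at 24.8, 19.5 and 28.5 FPKM in BDO and 50.3, 26.7 and 42.7 in PDO (log2 difference -0.68, SE 0.26, limma unadjusted p = 0.0383, adjusted p = 1.00). It was the only gene of 6 tested genes for CDK inhibitors with an unadjusted p under 0.05, and it had 0.0663 FPKM in BD and 0.221 in PD.

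Gm26880 (ENSMUSG00000096979, chromosome 4, 146509094 to 146511764, minus strand) is a predicted non-coding gene whose best protein match in the authors' deposited table is a retroviral envelope glycoprotein. It was the most abundant of the 8 in organoids, with 532, 607 and 437 FPKM in BDO 1, 2 and 3 and 16.8, 51.8 and 58.3 in PDO 1, 2 and 3. The lowest BDO was 7.46 times the highest PDO in scaled FPKM, and the log2 difference was 3.76 (SE 0.46). BD had 53.1 FPKM (901 reads) and PD had 27.0 (551 reads), a ratio of 1.96 (95% counting interval 1.76 to 2.18) in the same direction. BDO lay 3.12 ± 0.27 above their epithelium (log2, SD, n = 3 organoids). PDO lay at 0.31 ± 0.93 from theirs, with PDO 1 below and PDO 2 and 3 above, and their mean was at -0.0033 without PDO 3.

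The Gm26880 values are uncertain because reads may be shared with genes of near-identical sequence, which was not tested. Among GENCODE M21 transcripts, 7 other genes held a stretch of at least 100 bases with at least 95% identity to it, while Zfhx4, Sod3, Serpinb11 and Nudt22 had 0 such genes, Cbx7 had 1 (the overlapping Apobec3), Abcg2 had 4 and Bst1 had 5. The longest match, 811 bases at 95.9% identity, was with Gm42031, which was also separated between the groups, at 8.49, 4.14 and 9.49 FPKM in BDO and 1.55, 0.694 and 0.993 in PDO. AI506816, with 428 matching bases, was separated too, at 35.6 to 53.9 FPKM in BDO and 3.41, 2.45 and 30.8 in PDO. The stretches in Gm42031 and AI506816 match Gm26880 in the reverse orientation. The matching stretches also occur in Chd9, where deposited values were 2.73 to 5.31 FPKM in BDO and 5.29 to 7.08 in PDO and PDO was the higher group after scaling, and in Gm43305, Gm4316, Cep85 and Cnbd2, whose groups overlapped. For Bst1 and Abcg2 the matches were at most 161 and 111 bases long.

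**Figure D2:**
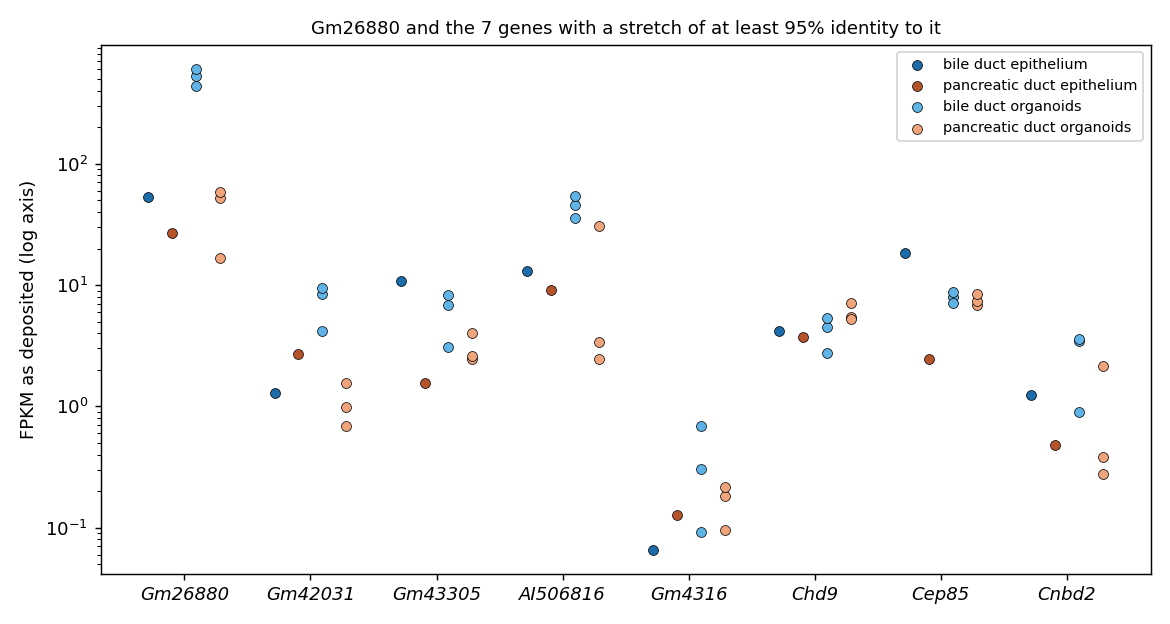
Deposited FPKM on a log axis of Gm26880 and of the 7 genes that share a stretch of at least 95% identity with it, 1 point per library, coloured by group. Gm26880 is the most abundant, and Gm42031 and AI506816 also have all 3 BDO points above all 3 PDO points.

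Read across the 8 genes, the epithelia did not repeat the organoid difference as a rule. BD and PD differed in the direction of the organoids for 3 genes (Bst1, Zfhx4, Gm26880) and in the opposite direction for 3 (Sod3, Cbx7, Abcg2), each with a counting interval that excludes equality. For Nudt22 and Serpinb11 the epithelial difference was within counting error. Counted by sign alone, 3 of 8 had the direction of the organoids, or 2 of 7 without Gm26880, where 451 of the 809 separated genes (55.7%) did. Of those 809, 4.70% were at least 2-fold apart between the epithelia in the direction of the organoids and 3.21% in the opposite direction, and Bst1 was the member among the former. By direction in organoids, the share was 54.1% of 357 for genes higher in BDO, 57.1% of 452 for genes higher in PDO and 64.3% of the 42 at least 2-fold apart. Sod3 and Cbx7, higher in PDO, were both higher in BD. The median size of the log2 difference over the 8 genes was 0.42 between the epithelia and 1.34 between the organoids, and over all 12094 tested genes 0.24 and 0.12. The organoid differences chose the genes, so the larger size of the members' organoid differences supports nothing. Bst1 had epithelial and organoid differences of like size, and their order depended on the scale: 1.53 and 1.63 on the log2(scaled FPKM + 1) scale, but 1.75 and 1.71 with a pseudocount of 0.1. These epithelial ratios have no replicate check, because each epithelium was 1 library.

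The epithelial libraries also differed in the markers of several cell types. All 10 duct epithelium markers were higher in BD, and their sum was 4.06-fold higher. The intestinal absorptive markers were higher in BD in 8 of 8, with sums of 373 and 48.4 FPKM, and the leukocyte markers in 6 of 8, with sums of 1031 and 692. Hepatocyte markers summed to 324 FPKM in BD and 82.4 in PD, and nerve markers to 63.1 and 93.6. The endothelial markers summed to 417 FPKM in BD and 664 in PD, with 1 of 8 higher in BD. Acinar markers were 2.11-fold and smooth muscle markers 1.89-fold higher in PD in sum, with 0 of 8 and 1 of 6 higher in BD. The part of these differences in the epithelial values of the 8 genes was not tested.

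**Figure D3:**
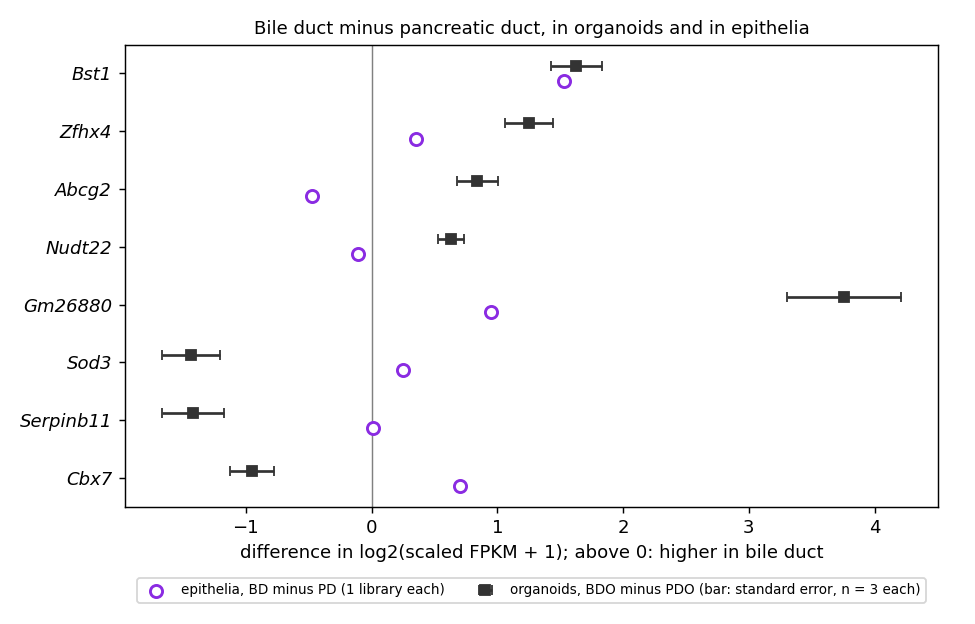
Difference in log2(scaled FPKM + 1), bile duct minus pancreatic duct, for each gene in organoids (squares, with the standard error, n = 3 each) and in epithelia (circles, 1 library each). Circle and square lie on the same side of 0 for Bst1, Zfhx4 and Gm26880, and Bst1 is the gene for which they lie closest.

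**Figure D4:**
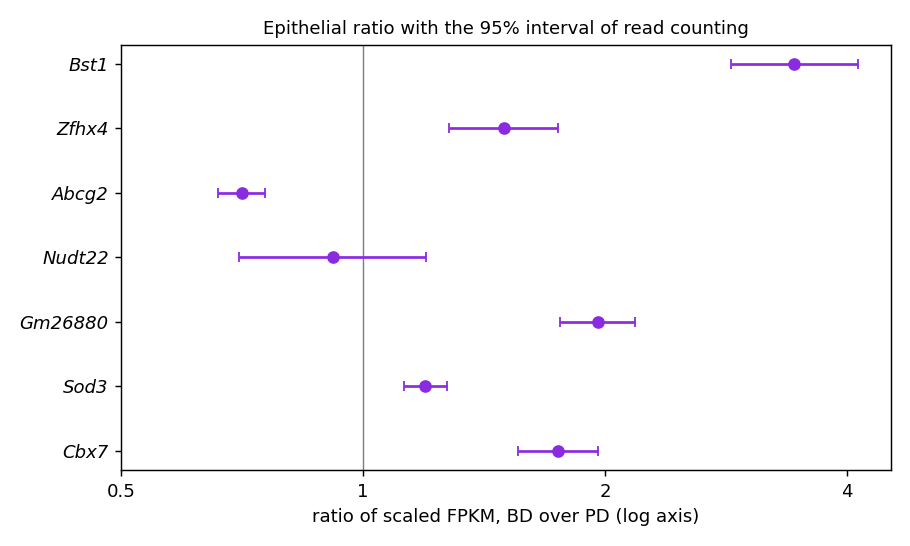
Ratio of scaled FPKM in bile duct over pancreatic duct epithelium on a log axis, with the exact 95% interval of read counting, for the 7 genes with more than 1 read in each epithelium. Only the interval of Nudt22, 0.701 to 1.20, includes 1.

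Organoids and epithelia of the same organ were compared next. Mitochondrial genes held 24.9% of the summed FPKM in BD, 18.8% in PD and 5.43% to 7.29% in the organoids, and the 8 markers of cell division summed to 42.7 FPKM in BD, 15.1 in PD and at least 177 in each organoid. The part of these differences, and of the marker lists of other cell types above, in the values of the 8 genes was not tested. In both organs Abcg2 and Sod3 were at least 2-fold lower and Bst1 at least 2-fold higher in organoids, with all 3 organoids on the same side. Cbx7 was at least 2-fold lower in bile duct organoids alone, Zfhx4 at least 2-fold lower in pancreatic duct organoids alone, Gm26880 at least 2-fold higher in bile duct organoids alone and Serpinb11 in pancreatic duct organoids alone. That makes 5 of 8 genes in each organ, 2 higher and 3 lower, where 14.4% and 25.3% of 14959 genes were higher and lower in bile duct and 17.6% and 24.1% of 14681 genes in pancreatic duct. These are the genes with at least 1 scaled FPKM in the epithelium or in all 3 organoids of the organ, and Serpinb11 is not among those of bile duct. With a pseudocount of 0.1, Serpinb11 also passed 2-fold in bile duct, at 1.56 on the log2 scale, which makes 6 genes there. That value rests on 3 reads in BDO 2 and 1 in BD, where up to 5.57 are allowed (exact Poisson 95% interval). With a single epithelial library on each side these contrasts were not tested, and 0 of the 8 genes were at least 2-fold apart in opposite directions in the 2 organs, where 51 of 15751 genes (0.324%) were. By any amount, with all 3 organoids on the same side, 3.54% were. The comparisons of organoids with epithelia depend on the scaling, whose factors lowered organoids against epithelia by 0.15 in bile duct and 0.14 in pancreatic duct (log2) relative to FPKM as deposited. With the pseudocount, the shift was smaller for genes of low level.

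**Figure D5:**
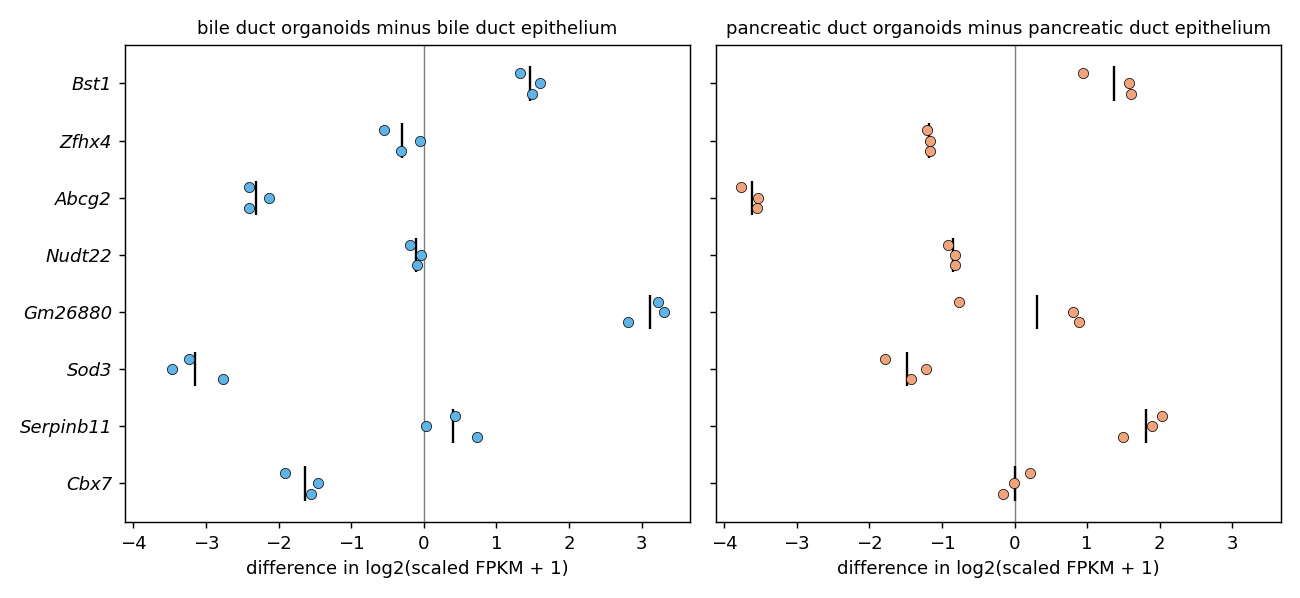
Difference in log2(scaled FPKM + 1) between each organoid and the epithelium of its organ, for bile duct on the left and pancreatic duct on the right, with 1 point per organoid and the mean as a bar. Abcg2 and Sod3 lie below 0 and Bst1 above 0 in both organs, while Gm26880 in pancreatic duct has points on both sides.

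The places of single libraries are given as a description, because these same values chose the genes. The shares over all separated genes were not worked out. Among the 5 genes that were higher in BDO, BDO 2 was the highest bile duct organoid for 5 of 5 and BDO 1 the lowest for 4 of 5. PDO 1 was the lowest pancreatic duct organoid for 5 of 5. Of the 3 genes that were higher in PDO, BDO 2 was the lowest bile duct organoid for 2 and PDO 1 the highest pancreatic duct organoid for 2.

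The genes with the most similar profile over the 8 libraries, by Pearson correlation of log2(scaled FPKM + 1) among 12827 protein-coding genes, were partly other members. These correlations are over 8 points that include the separated organoids and are given as a description. Zfhx4 and Nudt22 were each other's closest gene at 0.964, followed for both by Grk2, the kinase that desensitises G protein-coupled receptors, at 0.934 and 0.937. The third was Tigd2 at 0.920 for Zfhx4 and Prdx4 at 0.910 for Nudt22. Bst1 was followed by Stk39 at 0.938 and Clic6 at 0.930, and Gm26880 by Plekhd1 at 0.949, Bst1 at 0.925 and Clic6 at 0.882. Clic6, a chloride channel protein, had 22.6 to 42.7 FPKM in BDO and 3.57 to 16.7 in PDO, and 11.4 and 2.13 FPKM in BD and PD.

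Abcg2 had the closest followers, Cdr2 at 0.991, Dnajc3 at 0.987 and Ggt7 at 0.986. For Sod3 they were Chkb at 0.983, Fads6 at 0.980 and Meis1 at 0.972. Meis1, a homeobox factor, had 0.394 to 0.645 FPKM in BDO, 1.19 to 1.75 in PDO, and 4.42 and 3.35 in BD and PD. Cbx7 was followed by Cerk at 0.946, Man2b1 at 0.934 and Scnm1 at 0.928. For Serpinb11 they were Nsrp1 at 0.964, Fam206a at 0.947 and Foxj1 at 0.936. Foxj1 had 3.32, 0.610 and 1.76 FPKM in BDO and 14.2, 19.6 and 12.0 in PDO, and, unlike Serpinb11, was present in the epithelia at 0.444 FPKM in BD and 2.07 in PD.

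Of 18 nearest or overlapping genes with at least 1 FPKM in a library, 14 were tested, 0 passed limma's adjusted threshold, 1 (Apobec3) had an unadjusted p under 0.05, and 0 were separated between the groups after scaling. Over the 9 lists of related genes, 102 genes other than the 8 were tested. Of these, 0 passed limma's adjusted threshold and 5 (4.90%) had an unadjusted p under 0.05, 2 higher in BDO and 3 higher in PDO, against 2.57% of all tested genes. In 14 of them (13.7%) the groups were separated, 9 with BDO higher and 5 with PDO higher, against 6.69% of all tested genes. Their median log2 difference was 0.0077 and the median size 0.11.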

How the data were processed

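Per the labels' protocols, libraries came from poly-A selected RNA and an NEBNext Ultra kit. Bowtie2 2.2.3, HISAT2 2.1.0, TopHat2 and HTSeq 0.6.0 are named in the submitters' processing notes, while the build, annotation and strand setting are not given in the sources used here. The values deposited by the authors are FPKM for 31228 genes, with the unit read from the values. FPKM times the GENCODE M21 exon length was a whole multiple of a step in all 8 libraries, within 0.05 of a read, for 28267 genes (90.5%) and all 8 members. Coordinates are those of the deposited table, which for the members equal GENCODE M21 (GRCm38). The number of columns of other samples was 0.

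FPKM were scaled by a trimmed mean of log ratios (30% of ratios and 5% of levels trimmed on each side), over 6 organoids or, with epithelia, over 8 libraries. Genes reaching 1 FPKM in 3 or more organoids were tested with limma on log2(FPKM + 1), with a trend and Benjamini-Hochberg adjustment. Simulated on 12094 genes with 200 changed, it recovered 65.5% (80.2% of 4-fold changes), with 7 false calls among 138. The simulated noise was independent between genes and libraries, while deviations of the real organoids were correlated, so these rates need not hold for the real data. Ratios of epithelia have exact (Clopper-Pearson) intervals of read numbers. The 8 genes and the lists were chosen with earlier results of these data known. Genes named are the members, their 3 closest profiles, nearest expressed neighbours, and, for each list, the most abundant gene, the widest difference and separated genes. Some of these list genes are given by count only, some named by the rule are not reported here, and the genes matching Gm26880 were named after their values were seen. Transcripts were compared with blastn 2.17.0. The software was R 4.3.3, limma 3.58.1 and Python 3.11.15. Alternatives were other scaling, pseudocount, filters, a replicate block, limma-voom and leaving out each organoid.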

Additional observations from a re-analysis of the deposited data

How the results depend on the processing

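Separation of the organoid groups chose the 8 genes, so leaving out an organoid could not end it and shows nothing of its stability. Of the 8, 3 had the direction of the organoids in the epithelia under each scaling and pseudocount tried. Without Gm26880, an alternative chosen after seeing the data, it was 2 of 7. A pseudocount of 0.1 in place of 1 enlarged differences of low genes by over 1.5 times: the organoid differences of Zfhx4 (3.65), Serpinb11 (-2.74) and Abcg2 (1.43), the epithelial difference of Zfhx4 (0.55), and the change from epithelium to organoid of Zfhx4 (-0.47 in bile duct, -3.55 in pancreatic duct) and Serpinb11 (1.56 and 4.36). Across 176 single-gene alternatives 3 turned sign. These were the change from epithelium to organoid of Nudt22 in bile duct with FPKM as deposited (0.023), of Cbx7 in pancreatic duct without PDO replicate 1 (-0.086, with a range of -0.086 to 0.074 over organoids left out) and of Gm26880 in pancreatic duct without PDO replicate 3 (-0.0033, range -0.0033 to 0.84). The count of genes called by limma between the organoids was 1 with limma-voom on reads and ran from 0 to 11 without each organoid, 11 being reached without PDO replicate 3, and none of these genes was a member. Without an organoid, only 6 or 7 of the 8 genes passed the filter and were tested. The number of separated genes ran from 1251 to 3917 without each organoid, where fewer samples make separation easier, and was highest without BDO replicate 1. With a minimum of 10 FPKM, 871 genes differed at least 2-fold between BD and PD, because fewer were tested, against 2046. The replicate numbers come from titles alone. Deviations of same-numbered organoids from their group means correlated at -0.10, -0.44 and 0.48. Whether the numbers pair the organoids cannot be told from these values, because deviations from a mean of 3 cultures constrain one another. Across numbers the correlations ran from -0.60 for BDO 3 with PDO 2 to 0.65 for BDO 1 with PDO 2, the 2 organoids with the lowest Mki67 of their group (23.6 and 18.5 FPKM, against 31.2 to 66.8 in the other 4). With the replicate block limma called 0 genes at the adjusted threshold and 295 at the unadjusted one. Zfhx4 in PDO and Serpinb11 in the epithelia rest on fewer than 10 reads a library.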
